A study of Salmo salar with 20 samples.

Results

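The account concerns the 4 arrays of Atlantic salmon (Salmo salar) that received pea protein concentrate with soyasaponins (PPC + S), out of 20 arrays in the series. These arrays are the ones whose sample titles name pea protein concentrate. On each array distal intestinal RNA of 1 fish was hybridised against 1 control pool, made of 12 fish on the same pea protein concentrate (PPC) diet without saponins, with 6 fish from each of 2 tanks. The fish were post smolts in seawater, and the feeding lasted 80 days with 2 g/kg of a soyasaponin extract in the diet. Every diet also held fish meal, fish oil and rapeseed oil, and by the study's methods a diet with and without saponins was otherwise the same. The other 4 groups, used here only to show where PPC + S differs, received the same dose with corn gluten (CG + S), horsebean meal (HBM + S), rapeseed meal (RSM + S) or sunflower meal (SFM + S), with 4 fish each against a pool of their own. Corn gluten and pea protein replaced a larger share of the dietary protein than the other plant sources did. The effect of pea protein itself is not part of any ratio, because fish and pool both received it.

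Saponins are plant glycosides with a detergent-like structure that can insert into membranes by binding sterols, and they also bind bile salts in the gut. In salmon, high levels of soybean or pea ingredients in the feed can lead to an enteritis of the distal intestine, in which mucosal folds shorten and fuse, leukocytes enter the lamina propria and the absorptive vacuoles of the enterocytes disappear. The distal intestine of salmon takes up protein and other macromolecules by endocytosis into these vacuoles, and it also carries much of the gut-associated immune tissue of the fish, which has no Peyer's patches or mesenteric lymph nodes.

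The results are log2 ratios of fish over pool, on which a value of 1 is a 2-fold higher signal and -1 a 2-fold lower one. Where 4 values follow each other they belong to fish 1, 2, 3 and 4, errors after ± are SD over 4 fish, and adjusted p is from limma with Benjamini-Hochberg adjustment over all probes tested. Of 21322 probes, 18999 had a value on at least 3 of the 4 PPC + S arrays and were tested. A probe passed the limits with a mean change over 1.6-fold and an adjusted p under 0.05. As the control is 1 pool, differences among control fish do not enter the test, and the 4 fish came from 2 tanks that the labels do not name, so that p can be too small. Between 67% and 77.5% of the probe spots of these arrays were well above background in a channel. Precision is limited by having 4 arrays.

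The direction of the ratios was taken from the authors' normalized values and does not follow the stated dyes on every array. The methods give Cy5 for each fish and Cy3 for each pool. Set against the scanner intensities, the columns of fish 2 and 4 ran with these dyes, with a Pearson's r across spots of 0.98 and 0.99, and those of fish 1 and 3 ran against them, with -0.99 and -1.0. The same 2 and 2 arrays were found in each other diet. Arrays 1 and 4 of the scanner output matched the columns labelled fish 4 and fish 1, so the fish numbers used here are those of the normalized values. With the dyes taken as stated for every array, 0 probes passed the limits by limma and 33 did so without adjustment, and each direction given below therefore rests on the normalized values. In these values all 4 PPC + S arrays correlated positively across 16889 probes, with r of 0.65 and 0.86 within the same array direction and 0.47 to 0.54 between opposite directions. In the other diets r was 0.15 to 0.57 within a direction and -0.37 to 0.11 between directions.

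Probes carry no gene names in the files. Genes were named by finding the probe that carries the fold change and the SE listed by the study for the gene in PPC + S, which was possible for 224 genes. Of the other listed genes, 9 had no such probe, 19 had several and 4 shared a probe. The study chose these genes for their change on the same 4 arrays and the names rest on the same values, so the direction and the number of calls among them are not independent evidence. All 224 had the same direction in 4 of 4 fish, so the same direction in every fish does not set any list apart. Of the 224 genes 217 were well above background in fish and pool on all 4 arrays. In each list by role, the genes with the largest mean change and those that ran against the list are given with the value of every fish, and a few others with such values were chosen after these were seen.

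Saponins with pea protein gave a broad change in the distal intestine. Among all 18999 probes tested, 315 rose and 338 fell past the limits, or 3.44% in all (1.66% up and 1.78% down). All 315 rises and 337 of the 338 falls had the same direction in 4 of 4 fish, which passing the limits with 4 fish all but requires. The calls dropped whichever fish was left out, as 5 probes passed without fish 1, 3 without fish 2, 124 without fish 3 and 73 without fish 4. Each such fit also had fewer arrays, and the part of this in the drop was not tested. Limma without adjustment called 1345 probes (7.08%), and the methods' t-test called 916 without adjustment and 0 after it. With the array direction as a covariate, an alternative chosen after seeing the data, 1441 probes passed (7.58%), among them all 653. This fit takes the gap between fish 2 and 4 and fish 1 and 3 out of the spread. Its p-values therefore do not cover the full difference between fish. Of the 224 named genes 133 passed the limits, 44 rises and 89 falls, and 223 did so with the array direction in the fit. The same count was 2 without fish 1, 2 without fish 2, 36 without fish 3 and 22 without fish 4. The ubiquitin ligase LINCR and MHC class I passed whichever fish was left out. The plot of the leading genes gives the 30 largest mean changes by fish.

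**Figure D1:**
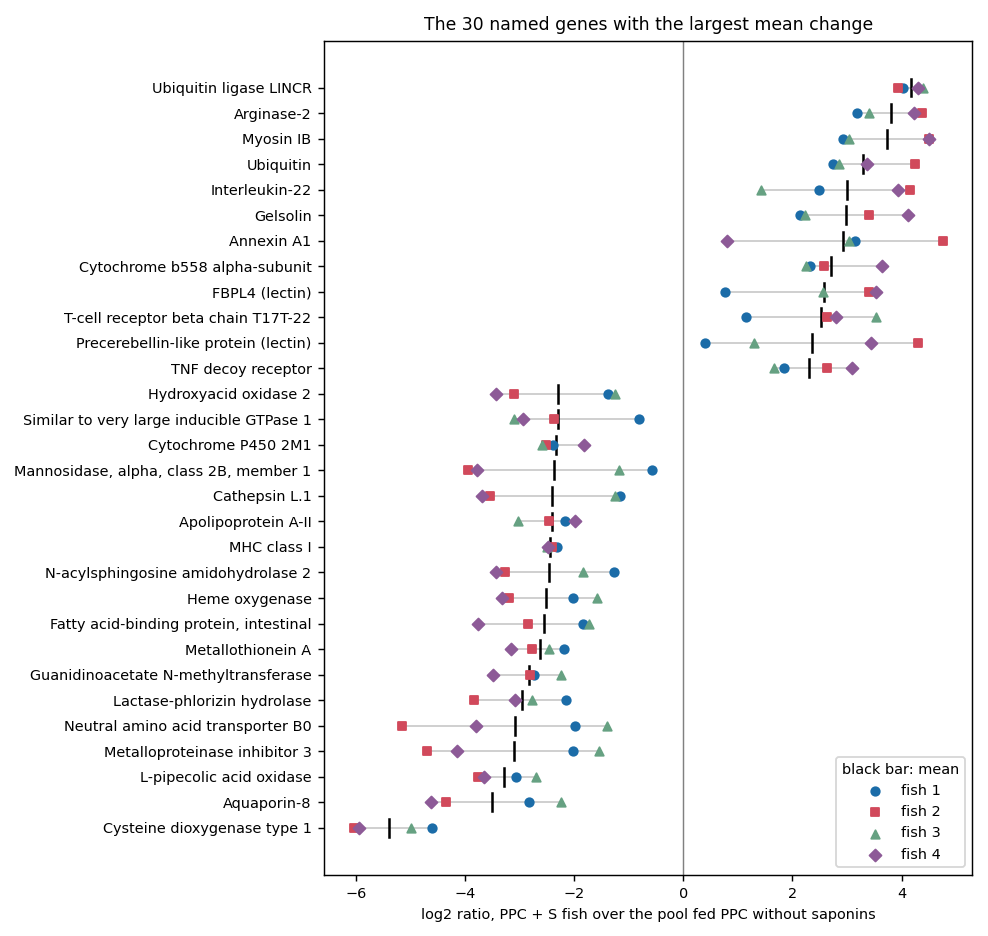
Log2 ratio of each PPC + S fish over its pool (x axis) for the 30 named genes with the largest mean change (y axis). Points are fish, black bars the means of 4 fish and grey lines the range over fish. Cysteine dioxygenase type 1 lies lowest with a mean of -5.41 and the ubiquitin ligase LINCR highest with 4.17, and none of the 30 genes has fish on both sides of 0.

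The size of the change differed between fish. Over the 147 genes listed down the median log2 ratio was -0.92, -1.70, -0.90 and -2.0 in fish 1 to 4, and over the 77 listed up it was 0.83, 1.5, 0.78 and 1.76. Fish 2 and 4 thus showed a larger change than fish 1 and 3. Both of them exceeded both others in 164 of the 224 genes, and the reverse held for 8. Fish 2 and 4 are the arrays that ran with the stated dyes and fish 1 and 3 those that ran against them, so a difference between the fish and one between the array directions cannot be told apart. The same split of the arrays in the other 4 diets, taken in the direction in which each gene changed in PPC + S, gave a median difference of -0.03, against 0.85 in PPC + S. It was above 0 for 105 of the 224 genes there and for 206 in PPC + S. In single genes it ran from -1.16 to 1.03 there. These genes had medians of -0.07 to 0.0 in those diets, so a direction effect that grows with the change could not show there. Across all probes measured on every array, deviations from the group means had a median r of -0.246 between opposite directions in different diets. For the same direction with other fish numbers it was 0.256. The part of tank in this split was not tested, since the tank of each fish is not given.

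**Figure D2:**
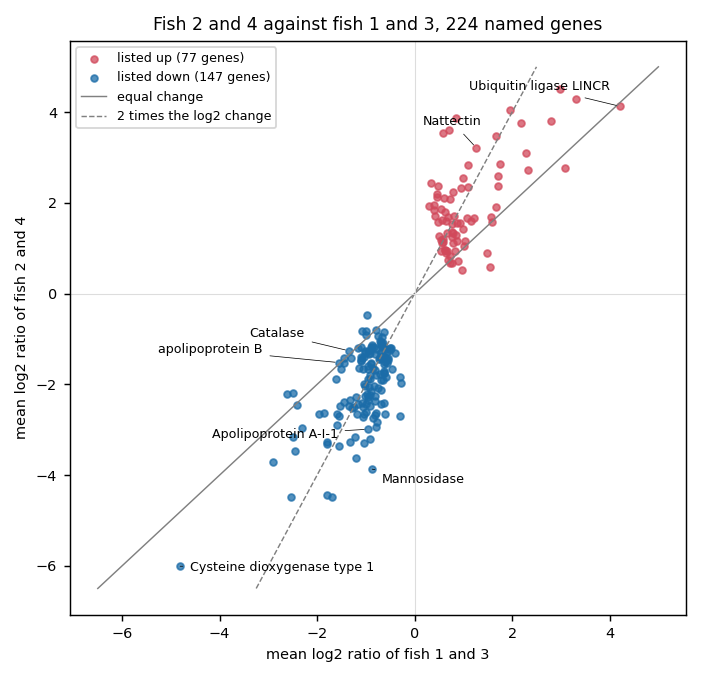
Mean log2 ratio of fish 1 and 3 (x axis, arrays against the stated dyes) and of fish 2 and 4 (y axis, arrays with them) for 224 named genes, red for those listed up and blue for those listed down. The solid line marks equal change and the dashed line 2 times the log2 change; 102 genes lie beyond the dashed line, while LINCR, catalase and apolipoprotein B lie near the solid one.

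Cytokine and chemokine genes gave large rises. Of the 5 listed, 4 were tied to a probe, and 3 rose past the limits (1.66% over all probes tested). Interleukin-22, a cytokine that acts on epithelial cells and promotes their defence and repair in mammals, was 2.48, 4.15, 1.43 and 3.94, a mean of 3.0 ± 1.28 or 8.01-fold (adjusted p = 0.0384). Its pool was well above background on 3 of the 4 arrays. Fish 2 and 4 were over 2 log2 units above fish 3. Chemokine CK-1, a CC chemokine of salmonids, was 1.93, 2.88, 1.49 and 2.32 with a mean of 2.16 (adjusted p = 0.0204). C-C motif chemokine 19-1, named after the ligand that guides dendritic cells and T cells into lymphoid tissue in mammals, was 1.28, 1.89, 0.91 and 2.78 with a mean of 1.72 (adjusted p = 0.0461). C-C motif chemokine 21, whose mammalian namesake binds the same receptor, ran the other way with -0.36, -0.91, -0.90 and -1.46 and did not pass (adjusted p = 0.0514). All 4 genes lay outside the range of the 16 fish of the other diets, which for interleukin-22 was -0.27 to 0.28. Over all probes tested, 4.44% had their 4 PPC + S fish outside that range.

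Genes that receive or restrain cytokine signals had a median of 1.18 over 7 genes. Of these, 5 rose past the limits (1.66% over all probes tested). All 7 were listed by the study as up on these arrays, so the sign of this median was fixed in advance. In the other diets the medians of these genes lay between -0.08 and -0.01. TNF decoy receptor, which binds TNF family ligands without passing on the signal, was 1.84, 2.63, 1.66 and 3.10 with a mean of 2.31 ± 0.68 (adjusted p = 0.0221). Suppressor of cytokine signaling 1, an inhibitor of JAK kinases, was 1.53, 1.6, 0.76 and 1.62, with fish 3 well below the rest (adjusted p = 0.0241). Interleukin-1 receptor type II, a decoy for interleukin-1, averaged 1.0 and interleukin-1 receptor antagonist 0.71, both past the limits. C-C chemokine receptor type 9, the gut-homing receptor of lymphocytes in mammals, was 0.81, 1.47, 0.43 and 2.14 and did not pass (adjusted p = 0.0769). Interleukin-6 receptor subunit alpha ranged from 0.12 in fish 3 to 2.45 in fish 4 and did not pass either.

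NF-kappa-B and other transcription factors had smaller mean changes. The median of 7 genes listed up was 1.07, with 0.83, 1.1, 0.78 and 1.22 in fish 1 to 4. Of the 7, 5 rose past the limits (1.66% over all probes tested). NF-kappa-B p100 subunit, the precursor of the non-canonical pathway, was 1.02, 1.09, 1.06 and 1.22 (adjusted p = 0.00937). The inhibitors that hold NF-kappa-B in the cytoplasm and are themselves its targets in mammals also rose, NF-kappa-B inhibitor alpha with 0.73, 0.84, 0.72 and 0.81 (adjusted p = 0.0116) and inhibitor epsilon with a mean of 0.96. E74-like factor 3, an epithelial ETS factor, had the largest mean of the list with 1.37, 1.84, 1.08 and 1.51 (adjusted p = 0.0155). CCAAT/enhancer binding protein beta-2, of a family that acts in acute phase responses and myeloid cells, was 0.83, 1.69, 0.39 and 2.5, a spread that left it outside the limits (adjusted p = 0.0930).

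Eicosanoid enzymes and annexins had a median of 1.21 over 5 genes that the study listed up on these arrays. Of these, 4 rose past the limits (1.66% over all probes tested). The exception was annexin A1, a phospholipid-binding protein known as a mediator of glucocorticoid action that limits leukocyte entry, which had the largest mean of the list. It was 3.14, 4.76, 3.03 and 0.79, so fish 4 lay far below the rest, and with a mean of 2.93 ± 1.63 it did not pass (adjusted p = 0.0611). Its difference from the other diets was 2.88 and passed (limma adjusted p = 0.00108). Arachidonate 5-lipoxygenase-activating protein, needed for leukotriene synthesis, was 1.03, 2.21, 0.88 and 2.45 (adjusted p = 0.0480). Annexin A5 was 0.79, 1.52, 0.95 and 1.6 (adjusted p = 0.0281), and annexin A2-A averaged 1.07. Leukotriene b4 12-hydroxydehydrogenase, which inactivates leukotriene B4, was 0.36, 1.34, 1.61 and 1.51 (adjusted p = 0.0468), and its difference from the other diets did not pass.

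Genes that depend on interferon ran against the cytokine genes. Of 11 tied genes, 10 were listed down with a median of -1.42. Of the 10, 6 fell past the limits (1.78% over all probes tested). The 4 genes of MHC class I presentation, by which cells show peptides to cytotoxic T cells, had a median of -1.74. The probe of MHC class I was -2.32, -2.42, -2.51 and -2.49, a range over fish of 0.19 and the most even change of all named genes relative to its mean (adjusted p = 0.00111). That probe was above background in the fish channel on only 2 of the 4 arrays, and in fish of the other diets it ranged from -3.58 to 4.97, with a value in 13 of 16 fish, too few for the difference to be tested. Class I genes are a family of similar copies, so which gene each probe measures is uncertain. MHC class I antigen was -2.35, -2.51, -0.56 and -2.27, with fish 3 apart (adjusted p = 0.0456). The lowest fish of the other diets was at -2.64 for this gene, and the difference from their mean did not pass (adjusted p = 0.0849). Beta-2 microglobulin, the invariant light chain of class I, was -0.5, -1.73, -0.43 and -1.59 and MHC class Ia heavy chain -0.53, -3.04, -0.86 and -1.83, and neither passed (adjusted p = 0.0841 and 0.101).

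The remaining interferon-dependent genes gave 4 falls past the limits among 6 listed down (1.78% over all probes tested). A gene similar to very large inducible GTPase 1, an interferon-induced GTPase, was -0.81, -2.37, -3.10 and -2.95, with fish 1 closest to 0 (adjusted p = 0.0420). It was as low as -3.13 in 1 fish of the other diets, and its difference from their mean did not pass (adjusted p = 0.295). Receptor-transporting protein 3 was -1.05, -2.27, -0.88 and -2.42 (adjusted p = 0.0476), and interferon-induced protein 44 averaged -1.25. Gamma-interferon-inducible thiol reductase, which reduces disulfides in lysosomes for antigen processing, was -0.76, -1.76, -0.54 and -2.05 and did not pass (adjusted p = 0.0672). Tyrosine-protein kinase Jak1, which passes on interferon and other cytokine signals, was the exception with 1.01, 1.39, 0.54 and 1.31 and rose past the limits (adjusted p = 0.0321).

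Lectins, antimicrobial proteins and Fc receptors were high but very uneven. The median of 7 genes was 0.40, 3.41, 0.87 and 2.92 in fish 1 to 4. Only 1 of them rose past the limits (1.66% over all probes tested). From the other diets 6 of the 7 differed past the limits (3.31% higher over all probes tested), and cathelicidin was not tested. The study listed the 7 for their rise on these arrays. FBPL4, a lectin that recognises fucose-type sugars, was 0.77, 3.41, 2.56 and 3.54 and rose (adjusted p = 0.0488). Precerebellin-like protein, a trout acute phase lectin, was 0.40, 4.30, 1.29 and 3.44 (adjusted p = 0.113) and nattectin, a fish C-type lectin, was 1.21, 3.52, 1.31 and 2.92 (adjusted p = 0.0525). Cathelicidin, an antimicrobial peptide, was 0.55, 3.93, 0.87 and 3.30 (adjusted p = 0.118), with the pool above background on 2 of 4 arrays. In each of these 4 genes fish 2 and 4 were above fish 1 and 3.

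Complement genes had both signs. Of 5 genes listed up, properdin P factor 2, which stabilises the alternative pathway convertase, rose past the limits with 0.66, 1.17, 0.59 and 0.77 (adjusted p = 0.0299). The others did not pass, among them the C5a anaphylatoxin chemotactic receptor with 0.59, 1.5, 0.24 and 1.94 (adjusted p = 0.106) and complement component C6, part of the membrane attack complex, with 0.40, 1.84, 0.40 and 1.84 (adjusted p = 0.107). For C6 the arrays with the stated dyes were also higher than those against them in the other diets, by 1.03 on average. Its difference from the other diets did not pass (limma adjusted p = 0.15). Complement C1q-like protein 2 was 1.23, 1.26, 0.20 and 2.90, lowest in fish 3 (adjusted p = 0.121). Of the 5 genes listed up, 4 differed from the other diets past the limits (3.31% higher over all probes tested). Both fluid-phase inhibitors of complement in the list fell past the limits. C1 inhibitor, a serine protease inhibitor of the classical pathway, was -1.48, -3.03, -1.72 and -2.75 with a mean of -2.24 ± 0.76 (adjusted p = 0.0279). C4b-binding protein alpha chain was -0.43, -0.81, -0.88 and -1.09 (adjusted p = 0.0315).

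Of the 4 genes of T cells and antigen-presenting cells, all listed up, 3 rose past the limits (1.66% over all probes tested). T-cell receptor beta chain T17T-22 was 1.14, 2.64, 3.53 and 2.80, lowest in fish 1 and highest in fish 3, with a mean of 2.53 ± 1.0 (adjusted p = 0.0345). No fish of the other diets exceeded 0.85. CD86, the costimulatory ligand on antigen-presenting cells, was 0.42, 1.2, 0.74 and 1.21 (adjusted p = 0.0410), and the CTLA4-like protein, named after an inhibitory receptor for that ligand, was 0.97, 1.17, 0.57 and 1.31 (adjusted p = 0.0279). TIMD4, of a family of T-cell immunoglobulin and mucin proteins, was 0.40, 1.85, 0.73 and 1.4 and did not pass.

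The phagocyte oxidase, which makes superoxide in the respiratory burst, had 1 of 3 tied genes past the limits. Cytochrome b558 alpha-subunit, the small membrane subunit, was 2.32, 2.58, 2.24 and 3.65 with a mean of 2.70 ± 0.65 and rose past the limits (adjusted p = 0.0160). Cytochrome b-245 beta polypeptide, the catalytic subunit, was 0.68, 1.80, 0.22 and 2.60 (adjusted p = 0.126). Neutrophil cytosolic factor 1, the cytosolic organiser of the complex, was 1.16, 2.90, 0.01 and 4.17 (adjusted p = 0.149). The 2 latter genes did not pass, and both were near 0 in fish 3 and highest in fish 4. From the other diets all 3 differed past the limits (3.31% higher over all probes tested). The study listed the 3 for their rise on these arrays.

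None of the 3 matrix metalloproteinases, which cut extracellular matrix, passed the limits. All 3 differed from the other diets past the limits (3.31% higher over all probes tested). The study listed these 3 for their rise on these arrays. Collagenase 3 was 1.76, 3.22, 0.24 and 1.86 and matrix metalloproteinase-9, stored in neutrophil granules in mammals, 1.52, 2.87, 0.04 and 1.58, both near 0 in fish 3 (adjusted p = 0.0917 and 0.114). The gene listed as matrix metalloproteinase was 0.41, 1.76, 0.52 and 2.52, lowest in fish 1 (adjusted p = 0.117). Their inhibitors had opposite signs. Metalloproteinase inhibitor 2 was 1.47, 2.85, 0.70 and 2.82 and did not pass (adjusted p = 0.0577), while metalloproteinase inhibitor 3, which is bound to matrix, fell past the limits with -2.03, -4.70, -1.55 and -4.16 and a mean of -3.11 (adjusted p = 0.0492). Leukocyte elastase inhibitor, a cytosolic inhibitor of neutrophil proteases, rose evenly with 0.88, 0.66, 0.88 and 0.8 (adjusted p = 0.0132).

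The markers of 3 cell types are themselves genes that the study listed for their change on these arrays, and most are described among the genes given here, so their direction is not independent of those groups. The 6 phagocyte markers are myeloperoxidase, both cytochrome b subunits, neutrophil cytosolic factor 1, matrix metalloproteinase-9 and cathelicidin, the 2 T cell markers are T-cell receptor beta chain T17T-22 and the CTLA4-like protein, and the 10 of absorptive enterocytes include aquaporin-8, lactase-phlorizin hydrolase, intestinal fatty acid-binding protein and the peptide transporter. For phagocytes 5 of 6 markers were tied to a probe, of which 1 rose past the limits, and the mean log2 ratio over the list was 0.68 to 3.06 in single PPC + S fish and -1.24 to 0.81 in the 16 other fish. Both T cell markers rose, with list means of 1.06 to 2.05 and -0.39 to 0.60 respectively. All 10 markers of absorptive enterocytes were lower in 4 of 4 fish, 6 of them past the limits (1.78% over all probes tested). Their list means were -3.03 to -1.39 in PPC + S and -0.82 to 0.51 in the others. Of the tied markers all but cathelicidin were well above background in fish and pool on all 4 arrays. In tissue RNA, more or fewer cells of a type and more or less RNA per cell cannot be told apart. The part of cell composition in the changes of any gene given here was not tested. Myeloperoxidase could not be tied to a probe and has no value.

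**Figure D3:**
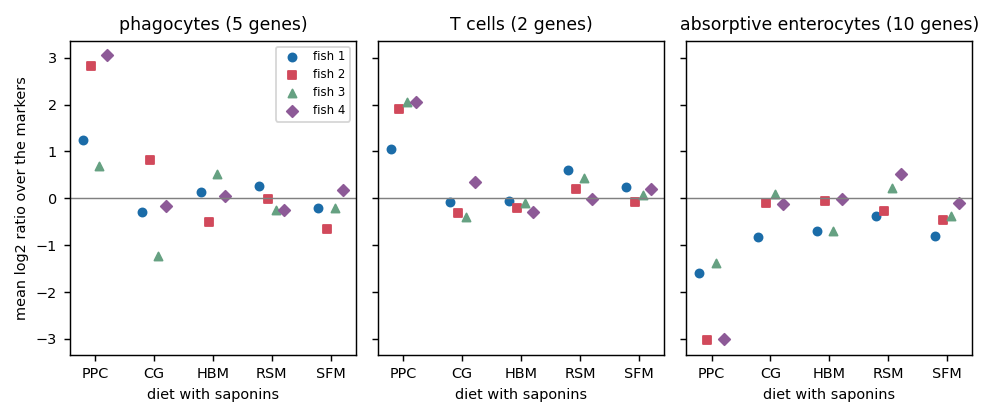
Mean log2 ratio over the markers of 3 cell types (y axis) for each fish of the 5 diets with saponins (x axis), 1 point per fish. The 4 PPC + S fish lie at 1.06 to 2.05 for T cells and at -3.03 to -1.39 for absorptive enterocytes, outside the range of the 16 other fish; for phagocytes the lowest PPC + S fish, at 0.68, lies within it.

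Arginase-2, which turns arginine into ornithine and urea in mitochondria, was among the largest rises of all, with 3.19, 4.37, 3.41 and 4.23, a mean of 3.80 ± 0.59 or 13.9-fold (adjusted p = 0.0105). The lowest PPC + S fish was at 3.19 and the highest of the 16 other fish at 0.39. Ornithine decarboxylase 1, the next step towards polyamines, was 0.68, 0.47, 0.63 and 1.33 and did not pass (adjusted p = 0.0519). Its difference from the other diets was 1.1 and passed (adjusted p = 0.00522). Part of this difference lay in the other diets, with means of -0.62 in HBM + S, -0.58 in CG + S, -0.14 in SFM + S and 0.05 in RSM + S.

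Genes placed here in a list of glutathione and peroxide scavenging mostly fell. Of 8 listed down, 7 fell past the limits (1.78% over all probes tested), and the median of the 8 was -1.29. Catalase, which breaks down hydrogen peroxide, was -1.38, -1.23, -1.31 and -1.29, a range over fish of 0.15 (adjusted p = 0.00644). Glutathione S-transferase alpha 3 was -1.26, -1.51, -0.84 and -1.81 (adjusted p = 0.0246), and glutathione peroxidase 4b, which reduces lipid peroxides, was -0.88, -1.16, -0.90 and -1.19 (adjusted p = 0.0133). Arrestin domain-containing protein 2 was -1.46, -1.48, -1.16 and -1.37 and had the largest mean fall of the list (adjusted p = 0.00937). It and CDGSH iron sulfur domain-containing protein 1, which also fell past the limits, are not enzymes of glutathione or peroxide. The study's heading for them was oxidative burst and protection against free radicals. Glutathione S-transferase P was -0.8, -1.70, -0.61 and -2.13 and was the one that did not pass. Glutathione reductase, which regenerates reduced glutathione, went against the list with 0.77, 1.49, 0.78 and 1.57 and rose (adjusted p = 0.0340).

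Iron, heme and copper genes gave 6 falls past the limits among 7 listed down (1.78% over all probes tested). All 7 differed from the other diets past the limits (3.82% lower over all probes tested). Their median was -1.58 against -0.15 to 0.0 in the other diets, and the study listed them for their fall on these arrays. Metallothionein A, which binds zinc and copper, was -2.19, -2.77, -2.46 and -3.16 with a mean of -2.64 ± 0.42 (adjusted p = 0.0114). Heme oxygenase, which degrades heme, was -2.02, -3.2, -1.58 and -3.33 (adjusted p = 0.0279). The middle subunit of ferritin, the iron store, was -1.61, -1.4, -1.41 and -1.91 (adjusted p = 0.0116). Copper transport protein ATOX1, a copper chaperone, averaged -1.64 and high affinity copper uptake protein 1 -1.30. 5-aminolevulinate synthase, the first enzyme of heme synthesis, ran the other way with 1.19, 1.79, 2.15 and 2.0 and rose (adjusted p = 0.0160).

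All 17 tied genes of xenobiotic metabolism were lower in 4 of 4 fish, and 9 fell past the limits (1.78% over all probes tested). The same direction in 4 of 4 fish was found for all 224 named genes, which were listed for their change on these arrays. Over all probes tested, 36.6% had the same direction in every PPC + S fish with a value. Of the 6 cytochromes P450, oxidases of foreign compounds, steroids and lipids, 4 fell past the limits. Cytochrome P450 2M1, a trout fatty acid hydroxylase, was -2.40, -2.52, -2.59 and -1.83 (adjusted p = 0.0105), with the fish channel above background on 3 arrays. Cytochrome P450 24A1, which inactivates vitamin D hormone, was -1.68, -2.49, -1.5 and -2.81 (adjusted p = 0.0226). Cytochrome P450 monooxygenase CYP2K1v2 was -1.30, -3.25, -0.76 and -3.34 and did not pass (adjusted p = 0.0734). The conjugating enzymes included UDP-glucuronosyltransferase 2A2 with -1.42, -2.05, -0.98 and -2.51, which fell (adjusted p = 0.0337). Arylamine N-acetyltransferase was -0.88, -2.14, -0.67 and -3.55 and sulfotransferase 6B1 -0.86, -0.87, -1.06 and -2.48, in both cases lowest in fish 4, and neither passed (adjusted p = 0.104 and 0.0699).

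Lipid and steroid metabolism was the largest group, with 39 of 41 listed genes tied to a probe. Of the 38 listed down for their fall on these arrays, 22 fell past the limits (1.78% over all probes tested). From the other diets 32 differed past the limits (3.82% lower over all probes tested). The median over these 38 was -0.90, -1.48, -0.81 and -1.83 in fish 1 to 4, against medians of -0.11 to -0.03 in the other diets. Lipid carriers had a median of -1.71, and 5 of 8 fell past the limits. Intestinal fatty acid-binding protein, which carries fatty acids inside enterocytes, was -1.85, -2.85, -1.73 and -3.77 with a mean of -2.55 ± 0.95 (adjusted p = 0.0319). Apolipoprotein A-II was -2.18, -2.46, -3.04 and -1.98, lowest in fish 3 (adjusted p = 0.0132). It was also below 0 in the other diets, with means of -1.77 in SFM + S, -0.93 in CG + S, -0.86 in HBM + S and -0.38 in RSM + S. The lowest fish there was at -2.58, and the difference of -1.43 passed only at the edge (limma adjusted p = 0.05 after rounding).

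Apolipoproteins of the same lipoprotein pathway differed in how evenly they changed. Apolipoprotein B, the structural protein of chylomicrons, was -1.58, -1.59, -1.54 and -1.45 (adjusted p = 0.00483). Apolipoprotein A-I-1 was -1.17, -3.0, -0.75 and -2.98 and apolipoprotein A-I-2 -0.94, -3.06, -0.66 and -2.84, and neither passed (adjusted p = 0.0703 and 0.0859). In both, fish 2 and 4 were over 1 log2 unit below fish 1 and 3. For apolipoprotein B, 1 fish of the other diets was as low as -1.76, and the difference of -0.81 from their mean did not pass (adjusted p = 0.136). The same held for liver-type fatty acid-binding protein, with a difference of -0.82 (adjusted p = 0.0576).

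Of 11 genes of fatty acid oxidation and activation 5 fell past the limits (1.78% over all probes tested). All 11 differed from the other diets past the limits (3.82% lower over all probes tested). The study listed these 11 for their fall on these arrays. Hydroxyacid oxidase 2, a peroxisomal oxidase of 2-hydroxy acids, was -1.38, -3.11, -1.26 and -3.44 with a mean of -2.30 (adjusted p = 0.0488). Fatty acyl-CoA hydrolase of medium chain was -1.33, -2.54, -1.76 and -2.40 (adjusted p = 0.0211). Carnitine palmitoyl transferase I, which admits fatty acids to mitochondria, was -0.73, -0.95, -0.62 and -1.2, a smaller fall (adjusted p = 0.0255). Acyl-CoA dehydrogenase was -0.73, -1.39, -0.51 and -2.10 and did not pass.

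All 3 desaturases, listed down by the study, fell past the limits (1.78% over all probes tested). Of the 3, 2 also differed from the other diets past the limits (3.82% lower over all probes tested). Fatty acid desaturase domain family member 6 was -0.85, -2.21, -1.23 and -1.77 (adjusted p = 0.0351) and differed from the other diets by -1.63. Acyl-CoA desaturase, which makes oleate-type fatty acids, was -1.67, -1.18, -1.22 and -1.67 (adjusted p = 0.0144), and delta-6 fatty acyl desaturase, the first step towards long-chain polyunsaturated fatty acids, was -0.96, -0.97, -0.81 and -1.30 (adjusted p = 0.0159). For acyl-CoA desaturase the difference from the other diets did not pass (adjusted p = 0.281), with 1 fish there as low as -2.93. In glycerolipid metabolism, phospholipase B1, a brush border enzyme, was -0.74, -2.83, -1.24 and -2.04 and 2-acylglycerol O-acyltransferase 2-A, which rebuilds triglyceride from absorbed monoglyceride, -1.06, -1.99, -0.76 and -2.97. Neither passed (adjusted p = 0.0577 and 0.0684), while their differences from the other diets of -1.66 and -1.66 did. Dihydroxyacetone kinase 2 was -0.67, -0.96, -0.94 and -1.47 and fell (adjusted p = 0.0291).

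Retinoid genes gave 4 falls past the limits among 5 listed down (1.78% over all probes tested). Beta-carotene 15,15-monooxygenase 1, which cleaves carotene to retinal, was -1.36, -2.40, -1.76 and -2.99 (adjusted p = 0.0279) and epidermal retinal dehydrogenase 2 was -1.99, -1.81, -1.73 and -3.44 (adjusted p = 0.030). Retinol dehydrogenase 8, which interconverts retinol and retinal, was -0.83, -2.17, -0.82 and -2.34 and was the one that did not pass (adjusted p = 0.0581). In sphingolipid breakdown, N-acylsphingosine amidohydrolase 2, a ceramidase of the brush border, was -1.28, -3.28, -1.84 and -3.44 with a mean of -2.46 (adjusted p = 0.0392). Ganglioside GM2 activator, a lysosomal lipid transfer protein, was -1.2, -1.35, -1.08 and -1.92 and fell too (adjusted p = 0.0204). Both were lowest in fish 4. Acid lysosomal sphingomyelin phosphodiesterase 1 was -0.22, -2.04, -1.43 and -1.32 and did not pass, with fish 1 near 0 (adjusted p = 0.0728).

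Sterol, bile and steroid genes were closer to the limits. Only 25-hydroxycholesterol 7-alpha-hydroxylase, an enzyme of the alternative route to bile acids, fell past them, with -0.93, -0.84, -1.22 and -0.8 (adjusted p = 0.0158), and its difference from the other diets did not pass (adjusted p = 0.0935). Sterolin 1, a subunit of the transporter that sends plant sterols back to the gut lumen, was -0.90, -1.56, -0.97 and -2.54 (adjusted p = 0.0519). Alpha-methylacyl-CoA racemase, needed to shorten bile acid side chains, was -0.42, -1.73, -0.14 and -2.19 (adjusted p = 0.148). The steroid and bile acid enzyme 3-oxo-5-beta-steroid 4-dehydrogenase was -0.63, -1.06, -0.56 and -1.96 (adjusted p = 0.0748). These 3 genes were lowest in fish 4 and did not pass. StAR-related lipid transfer protein 5 ran the other way with 0.44, 1.03, 0.57 and 1.49 (adjusted p = 0.0613). For all 4 genes that did not pass the difference from the other diets did.

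Digestive and lysosomal proteases split by fish. The median of 5 genes listed down was -1.1, -2.65, -0.96 and -2.60, and none of them passed the limits. All 5 differed from the other diets past the limits (3.82% lower over all probes tested). Cathepsin L.1, a lysosomal cysteine protease, was -1.17, -3.55, -1.25 and -3.69 with a mean of -2.41 (adjusted p = 0.0655). Legumain was -1.1, -2.79, -0.96 and -2.51 and the probable serine carboxypeptidase CPVL -1.1, -2.65, -0.87 and -2.60. Fish 2 and 4 were over 1 log2 unit below fish 1 and 3 in each. Cathepsin K, a matrix-degrading relative, rose instead with 0.67, 1.01, 0.51 and 1.27 (adjusted p = 0.0368).

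The list of peptidases and brush border hydrolases gave 5 falls past the limits among 9 genes listed down (1.78% over all probes tested). Among the 5 was pancreatic secretory trypsin inhibitor, a protease inhibitor and not an enzyme of digestion, with a mean of -1.22 (adjusted p = 0.0155). Lactase-phlorizin hydrolase, a disaccharidase of the enterocyte surface, was -2.16, -3.85, -2.77 and -3.09 with a mean of -2.97 ± 0.71 or 7.81-fold (adjusted p = 0.0160). The lowest of the 16 fish of the other diets was at -3.01. Angiotensin I converting enzyme 2, a carboxypeptidase that also anchors an amino acid transporter in mammals, was -1.15, -2.42, -0.75 and -2.15 (adjusted p = 0.0485). Carboxypeptidase N catalytic chain was -1.26, -2.59, -1.42 and -2.36 and fell too (adjusted p = 0.0292). Fish 2 and 4 were below fish 1 and 3 in both. Meprin A alpha, a brush border metalloprotease, was -0.98, -2.52, -0.65 and -2.84 and did not pass (adjusted p = 0.0762).

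Amino acid metabolism held the largest fall of all named genes. Cysteine dioxygenase type 1, the enzyme that starts cysteine breakdown towards taurine and sulfate, was -4.61, -6.05, -5.0 and -5.96, a mean of -5.41 ± 0.71 or 42.4-fold lower than the pool (adjusted p = 0.00937). The lowest of the 16 fish of the other diets was at -4.30, which lay above all 4 PPC + S fish, and the difference from the mean of the other diets was -4.73 (adjusted p = 0.000119). L-pipecolic acid oxidase, of lysine breakdown, was -3.08, -3.77, -2.71 and -3.65 (adjusted p = 0.0105), with the fish channel above background on 3 arrays. Guanidinoacetate N-methyltransferase, the last step of creatine synthesis, was -2.74, -2.82, -2.25 and -3.50 (adjusted p = 0.0116). In the last gene 1 fish of the other diets was as low as -3.72, and its difference from their mean did not pass (adjusted p = 0.148).

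In all, 15 of 18 genes listed down under the study's heading of amino acid metabolism fell past the limits (1.78% over all probes tested). The median of the 18 was -1.43. Among the 15 were adenylosuccinate synthase like 2, folylpolyglutamate synthase and gamma-glutamyl hydrolase, enzymes of purine or folate metabolism. Of the 18 genes 12 had no overlap with the 16 fish of the other diets. Over all probes tested 4.44% had no such overlap, and the 18 were listed for their change in these fish. Kynurenine 3-monooxygenase, of tryptophan breakdown, averaged -1.75, aspartate aminotransferase -1.87 for the cytoplasmic and -0.86 for the mitochondrial enzyme, and methylmalonate-semialdehyde dehydrogenase, of valine breakdown, -1.84. All of these passed. Ammonium transporter Rh type B was -0.55, -2.32, -0.04 and -3.08, the widest spread between fish of the list, and did not pass (adjusted p = 0.171). Arginine N-methyltransferase 3, which modifies proteins, went against the list with 0.87, 1.24, 1.01 and 1.89 and rose (adjusted p = 0.0314).

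Amino acid and peptide transporters had large mean changes and wide spreads. Of 4 amino acid and peptide transporters listed down, solute carrier family 15 member 1, the peptide transporter of the brush border, fell past the limits with -1.26, -2.61, -1.31 and -2.45 (adjusted p = 0.0328). Its means were -0.88 in CG + S, -0.86 in SFM + S, -0.64 in HBM + S and 0.04 in RSM + S, with the lowest fish there at -2.05. The difference of -1.32 from the other diets passed (limma adjusted p = 0.0198). The sodium-dependent neutral amino acid transporter B0 was -1.98, -5.16, -1.41 and -3.81, a mean of -3.09 ± 1.72, and did not pass (adjusted p = 0.0613). All its fish lay below -0.66, the lowest of the other diets, and the difference from these was -2.93 (adjusted p = 0.000190). B0,+-type amino acid transporter 1 was -1.58, -2.44, -0.04 and -2.30, with fish 3 near 0. Sodium-coupled neutral amino acid transporter 2 ran the other way with 0.69, 1.47, 0.61 and 1.76 (adjusted p = 0.0519).

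Of 8 sugar, ion, vitamin and organic solute transporters listed down, 4 fell past the limits (1.78% over all probes tested). All 8 differed from the other diets past the limits (3.82% lower over all probes tested). The study listed these 8 for their fall on these arrays. Sulfate transporter was -0.88, -2.56, -1.46 and -2.32 (adjusted p = 0.0392) and solute carrier family 22 member 7, an organic anion carrier, -0.63, -2.62, -1.74 and -2.68 (adjusted p = 0.0496). Solute carrier family 13 member 3, a dicarboxylate carrier, was -0.91, -2.5, -0.93 and -3.92 and did not pass (adjusted p = 0.0937). Transcobalamin-2, which carries cobalamin, was -1.16, -2.53, -0.95 and -2.91 and did not pass either (adjusted p = 0.0528). Multidrug resistance associated protein 2, an apical export pump, was positive in each fish with 0.51, 1.61, 0.10 and 2.27 (adjusted p = 0.149).

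The tied water channels were listed down and the tied chloride carriers up. They kept that direction in every fish, as did all 224 named genes. Aquaporin-8 was -2.83, -4.35, -2.25 and -4.63 with a mean of -3.51 ± 1.16 or 11.4-fold lower (adjusted p = 0.0265), while the 16 fish of the other diets stayed between -0.49 and 0.30. Aquaporin FA-CHIP was -0.53, -1.30, -0.49 and -1.19 and did not pass (adjusted p = 0.0507). Solute carrier family 12 member 8, of the cation-chloride cotransporter family, was 0.76, 1.5, 0.85 and 1.92 and rose (adjusted p = 0.0407), and chloride channel protein 3 was 0.45, 2.35, 1.70 and 0.97 and did not pass (adjusted p = 0.0727). Guanylin, the gut peptide that drives chloride and water secretion through guanylate cyclase C, was 1.61, 0.51, 1.38 and 1.26, lowest in fish 2, and rose (adjusted p = 0.0362). Its means were 0.76 in RSM + S, 0.40 in SFM + S, 0.09 in CG + S and -0.19 in HBM + S, with the highest fish there at 1.47. The difference from the other diets was 0.92 and passed (limma adjusted p = 0.0321).

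Genes of cell contacts and cytoskeleton went both ways. Myosin IB, an actin motor of membranes, was 2.92, 4.51, 3.04 and 4.50, a mean of 3.74 ± 0.88 or 13.4-fold (adjusted p = 0.0158). Phospholipase D2, a signalling lipase, averaged 1.0 and rose. Epithelial cadherin, of adherens junctions, was -0.89, -2.08, -1.12 and -2.0 and fell (adjusted p = 0.0355), and gap junction Cx32.2 protein was -0.54, -1.44, -1.38 and -1.76 and fell too (adjusted p = 0.0369). Occludin, of tight junctions, was 1.09, 0.20, 0.85 and 0.82 and did not pass (adjusted p = 0.0571).

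The tied genes of glycan and proteoglycan turnover were listed down and those of glycan synthesis up. They kept that direction in every fish, as did all 224 named genes. Of 8 genes of glycan and proteoglycan turnover 3 fell past the limits (1.78% over all probes tested). All 8 differed from the other diets past the limits (3.82% lower over all probes tested). Among the 3 were glypican 1, a proteoglycan and not an enzyme of breakdown (adjusted p = 0.0449), and hyaluronan and proteoglycan link protein 4 (adjusted p = 0.0116). The fish channel of the link protein was above background on only 2 of 4 arrays. Lysosomal alpha-mannosidase (class 2B, member 1) was -0.57, -3.96, -1.18 and -3.78, the widest gap between fish 2 and 4 and fish 1 and 3 in the list (adjusted p = 0.104). N-acetylneuraminate lyase, which breaks down sialic acid, was -1.17, -2.54, -0.54 and -2.94 (adjusted p = 0.0770), and N-acetylglucosamine-6-sulfatase was -1.05, -1.94, -0.74 and -2.34 and fell (adjusted p = 0.0490). Of the 3 genes of glycan synthesis, beta-1,3-N-acetylglucosaminyltransferase 7 rose past the limits with 1.91, 2.61, 1.53 and 2.12 (adjusted p = 0.0155). Alpha-1,3-fucosyltransferase was 0.41, 1.42, 0.70 and 2.32 and did not pass (adjusted p = 0.0961). Nor did glucosamine 6-phosphate N-acetyltransferase, which supplies amino sugars, with 0.17, 0.93, 0.94 and 1.45 (adjusted p = 0.0749).

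The 4 genes listed under exocytosis were higher in every fish, as were all named genes listed up. Of the 4, 3 rose past the limits (1.66% over all probes tested). Gelsolin, which severs actin filaments, was 2.14, 3.41, 2.23 and 4.12, a mean of 2.98 ± 0.96 (adjusted p = 0.0256). Signal recognition particle receptor subunit beta, which docks ribosomes at the endoplasmic reticulum, was 0.87, 1.43, 0.52 and 1.96 and did not pass (adjusted p = 0.0574). Exosome complex exonuclease RRP42 was 0.77, 0.73, 0.87 and 1.14 and rose (adjusted p = 0.0165). Exosome component Rrp46 was 0.82, 0.82, 0.53 and 1.03 and rose too (adjusted p = 0.0225). Both are known as subunits of the RNA-degrading exosome, not as secretion proteins.

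Among growth factors and regulators 4 of 5 genes listed down fell past the limits (1.78% over all probes tested). Connective tissue growth factor was -0.83, -0.99, -1.06 and -1.68 (adjusted p = 0.0279) and fibroblast growth factor 12 -0.67, -1.39, -1.53 and -1.6 (adjusted p = 0.0279). BHLHB3, a class B basic helix-loop-helix repressor of the circadian system, was -1.31, -2.71, -1.13 and -3.61 and did not pass (adjusted p = 0.0578). Its relative BHLHB2 was -1.1, -0.40, -0.85 and -0.53 and fell (adjusted p = 0.0436). The former was lower in fish 2 and 4 and the latter in fish 1 and 3.

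The tied genes of ubiquitin and heat shock proteins were listed up and had higher values in every fish, as did all named genes listed up. Heat shock protein HSP 90-alpha and heat shock protein 67B2, the latter listed down, could not be tied to a probe and have no value. The ubiquitin ligase LINCR, a RING-type E3 ligase, was 4.02, 3.94, 4.39 and 4.31, a mean of 4.17 ± 0.22 or 18-fold, the largest rise of the named genes (adjusted p = 0.00111). The 16 fish of the other diets lay between -0.06 and 0.13. Ubiquitin was 2.74, 4.25, 2.86 and 3.36 (adjusted p = 0.0145). The constitutive chaperones heat shock cognate 70 kDa protein and heat shock cognate 71 kDa protein were 1.62, 1.37, 1.51 and 2.01 and 1.47, 1.28, 1.69 and 1.86, and both rose (adjusted p = 0.0116 for each). The mitochondrial 60 kDa heat shock protein was 1.91, 0.35, 1.17 and 0.84, lowest in fish 2, and did not pass (adjusted p = 0.0755).

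Over all lists, 8 of the 224 genes had a range over fish under 0.25 of their mean change, and 98 had a range larger than their mean change. The 8 were MHC class I, apolipoprotein B, LINCR, kalirin, catalase, NF-kappa-B inhibitor alpha, NF-kappa-B p100 subunit and arrestin domain-containing protein 2, singled out after their values were seen. All 8 passed the limits, which a small range beside the mean change favoured in advance. At the other end were neutrophil cytosolic factor 1 and ammonium transporter Rh type B, in which the range over fish was 2.02 and 2.03 times the mean change. The plot of list medians shows how far single fish lay apart in each list.

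**Figure D4:**
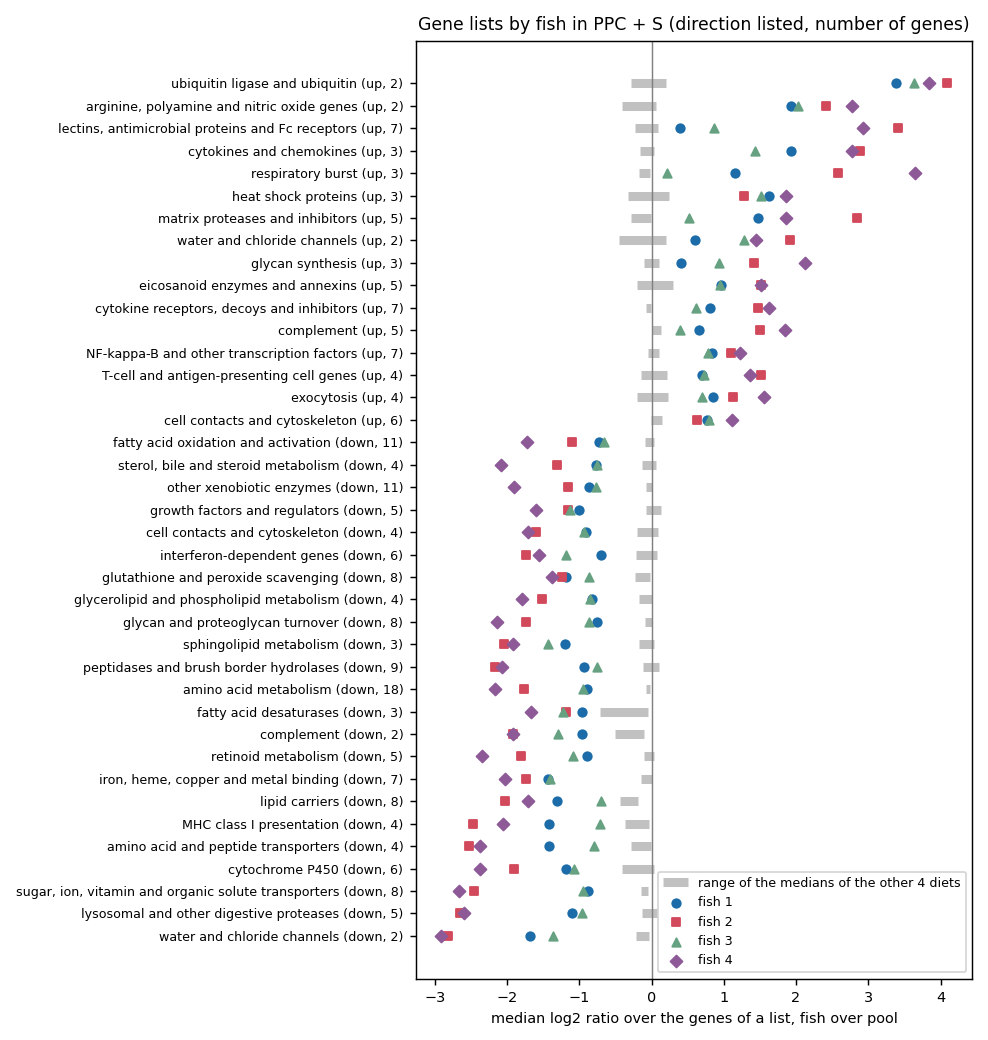
Median log2 ratio over the genes of each list (x axis) in fish 1 to 4 of PPC + S (points), for lists with at least 2 genes in a direction (y axis, with the direction listed and the number of genes). Grey bars span the medians of the other 4 diet groups, of which the widest in the downward lists runs from -0.72 to -0.05 for fatty acid desaturases, and no PPC + S point lies within a bar.

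The mean of the 4 PPC + S fish was compared with the average of the means of the 4 other diets by limma over the 20 arrays, a fit that takes 1 spread per probe for all groups. The difference passed the limits for 1275 of 17882 probes tested, or 7.13%, with 592 higher (3.31%) and 683 lower (3.82%) in PPC + S. On simulated data this fit made 43 false calls beside 184 right ones, so false calls can exceed the share set by the adjusted p. Of the 222 named genes that could be tested in this fit 203 passed. All 4 PPC + S fish lay outside the range of the 16 others in 121 of the 224 named genes and in 4.44% of all probes tested. The named genes were listed for their change in these PPC + S fish, so these counts were favoured in advance and say nothing about other genes. Each diet had a slide of its own, so slide and diet cannot be told apart. LINCR differed by 4.14 (adjusted p = 1.83e-17), arginase-2 by 3.88 (adjusted p = 9.64e-11) and aquaporin-8 by -3.36 (adjusted p = 2.58e-06). The count of probes was lowest without fish 4 of PPC + S, at 768, and highest without fish 3, at 1677.

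**Figure D5:**
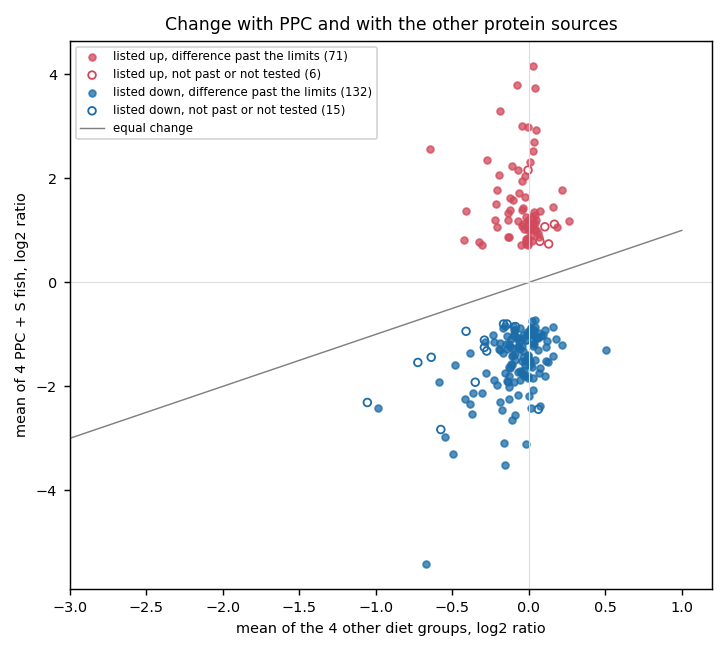
Mean log2 ratio of the 4 PPC + S fish (y axis) against the mean of the 4 other diet groups (x axis) for 224 named genes. Filled points passed the limits for the difference between them, 71 listed up and 132 listed down, and open points did not or were not tested. All points listed down lie below the line of equal change and all listed up above it.

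Among probes without a tied gene, the largest rises were those of Ssa#S31963958, with 4.28, 6.64, 4.36 and 6.62 and a mean of 5.48 (adjusted p = 0.0160), and Ssa#CK886184, with 3.67, 4.92, 3.17 and 4.92 and a mean of 4.17 (adjusted p = 0.0148). The largest falls were those of Ssa#EG788820, with -3.75, -3.89, -2.79 and -3.77 and a mean of -3.55 (adjusted p = 0.0105), and Ssa#S31964089, with -1.88, -4.95, -2.15 and -5.05 and a mean of -3.51 (adjusted p = 0.0479). Both rises and the latter fall differed from the other diets past the limits. Ssa#EG788820 also averaged -3.42 in SFM + S and -2.15 in CG + S, and its difference of -1.67 did not pass (adjusted p = 0.356).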

How the data were processed

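Samples were grouped by the diet in their titles. The study's authors flagged and left out low-quality spots and normalized log2 ratios by Lowess within each array, and these deposited log2 ratios were used as given. The deposited scanner intensity values served for detection, for the direction of each array and as an alternative. The processing notes of the submitters name Agilent Feature Extraction 9.6.1, while the methods name another program. No aligner or genome build applies.

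The spots of a probe were averaged over the 2 duplicates, and probes with a value on at least 3 of the 4 PPC + S arrays were tested against 0 with limma 3.58.1 in R 4.3.3 on the log2 scale, with no pseudocount. The contrast with the other diets used all 20 arrays. Calls required a Benjamini-Hochberg adjusted p under 0.05 and a change over 1.6-fold, the fold limit of the study's methods, whose one-sample test is called the methods' t-test here. On simulated data with 200 probes changed by 1 on the log2 scale, the PPC + S fit made 147 right calls (73.5%) and 5 false ones among 18999 probes. The contrast made 184 right calls (92.0%) and 43 false ones among 17882 probes, a larger false share than the limit of 0.05 allows for. Simulated fish were drawn independently with the spread of their own diet group, without tank or the split by array direction.

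A listed gene was named where exactly 1 probe had its fold change and SE in PPC + S and no other listed gene shared that probe. Genes were sorted into 36 lists by role. In each list up to 3 genes with the largest mean change and up to 2 that ran against it are given by fish, and among probes with no gene the 2 largest rises and falls. The members and lists were chosen with earlier results of these data known. By the study's methods the fish are separate animals, 2 from each of 2 tanks, so p-values measure the spread between these 4 fish with tank left out. Alternatives were the scanner intensities (normexp with an offset of 50, then loess within each array), median centring, both spots required, other filters on missing values, each fish left out, other tests, a higher fold limit, all 20 arrays in 1 fit, the fish number as a block, and, added after seeing the data, the array direction as a covariate and the dyes as stated. Fish with the same number in different diets deviated together no more than other fish of the same array direction (median r of 0.253 and 0.256), and the lowest r of a pair was 0.036, so the numbers were not taken to pair samples.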

Additional observations from a re-analysis of the deposited data

Results flagged for a closer look

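In 7 of the 224 named genes 1 of the 4 PPC + S fish lay apart from the other 3 by Dixon's test at 95%, a test that chance passes in about 1 of 20 groups. Fish 4 was apart in 4 of these genes, with a log2 ratio of -3.44 for epidermal retinal dehydrogenase 2 (others -1.99 to -1.73), -2.48 for sulfotransferase 6B1 (others -1.06 to -0.86), -1.39 for glutathione S-transferase kappa 1-like (others -0.73 to -0.64) and 1.32 for tropomyosin-1 alpha chain (others 0.59 to 0.64). Fish 3 was apart in 2 genes and was the one closest to 0 in both, with -0.56 for MHC class I antigen (others -2.51 to -2.27) and 0.76 for suppressor of cytokine signaling 1 (others 1.53 to 1.62). Fish 1 was at -0.52 for 3-hydroxyisobutyrate dehydrogenase (others -0.97 to -0.90).

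The PPC + S mean differed from the average of the 4 other diets for 1275 of 17882 probes in the limma contrast, 592 higher and 683 lower.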

How the results depend on the processing

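No named gene changed direction under the alternatives run on single genes (scanner intensities, centring, both spots, all 4 arrays, each fish left out, array direction). With fish 1 and 3 turned to the stated dyes, the mean of 18 of the 224 would change sign. The 653 calls of all probes and 133 named genes became 375 and 89 with the scanner intensities, 1345 and 224 by limma without adjustment, 1382 and 221 with all 20 arrays in 1 fit, and 292 and 103 with a limit of 2-fold. The methods' t-test called 0 and 0 after Benjamini-Hochberg adjustment, against 916 and 192 before it. Leaving out 1 fish at a time gave 3 to 124 probes and 2 to 36 named genes. With the array direction as a covariate the counts were 1441 and 223 in the fit of 4 arrays and 1447 and 221 in that of 20 arrays. With the dyes taken as stated they were 0 and 0 by limma (33 probes without adjustment), and 11 for the contrast with the other diets in place of 1275. That contrast gave 768 to 1677 probes when 1 PPC + S fish was left out and 1071 to 1278 under the scanner intensities, centring and both filters on missing values. The counts fell within 1.5 times the first ones under centring (647 probes), both spots required (680), a value on all 4 arrays (666) and on at least 2 (636). Why the counts moved was not tested.

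With the fish number as a replicate block the contrast called 1389 probes. The deviations of fish with the same number in different diets correlated with r of 0.036 to 0.612 over 40 pairs (median 0.253), against 0.023 to 0.498 (median 0.256) for other numbers with the same array direction, so the numbers did not pair the fish.

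By gene, 46 of 224 lost their call with the scanner intensities and 2 gained one. Precision is limited by 4 arrays and 1 pool. Of the 224 genes 7 were not well above background on every array.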
